A study of Mus with 4 samples.

Results

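Brown adipocyte identity is set by a small group of transcriptional regulators, and the m6A peaks on the transcripts of 10 of them were described here in interscapular brown adipose tissue (iBAT). The 10 genes were chosen by name for their known role in brown fat, with earlier results of these data known. Included were *Prdm16*, *Pparg*, *Ppargc1a*, *Ebf2*, *Zic1*, *Esrra*, *Esrrg*, *Ppara*, *Cebpa* and *Cebpb*. They are 10 of the 11431 Ensembl genes with an m6A peak in either genotype. All peaks whose deposited gene name was one of these 10 were taken, which gave 33 of the 18400 peaks of *Wtap* flox/flox mice and 27 of the 18693 peaks of *Wtap*-BKO mice. Each of the 10 genes had at least 1 peak in each genotype, so no member was without a value.

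The study mapped m6A in iBAT by MeRIP-seq, in which fragmented poly(A)+ RNA is pulled down with an antibody against m6A and sequenced beside its input. Both groups were C57BL/6 mice aged 8 weeks on normal chow, and both carried *Wtap* alleles with a floxed exon 4. *Wtap* flox/flox mice, without Cre, were the controls and are called control below. *Wtap*-BKO mice (*Wtap* flox/flox *Ucp1*-iCre) carried in addition an iCre expressed together with *Ucp1*, so that cells of the tissue that never expressed this iCre keep *Wtap*. Each genotype was 1 immunoprecipitate (IP) and 1 input, both from RNA pooled over 8 mice, and the authors deposited the peaks of each genotype as a list. Without replicates, differences between the genotypes were not tested, and all comparisons below describe these 2 pools. Read depth is unknown for both lists.

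m6A is laid down on mRNA in the nucleus by a writer complex with METTL3 as its catalytic subunit and WTAP as a regulatory subunit, and reader proteins that bind it can change the stability and translation of the transcript. In brown fat, PRDM16, EBF2 and ZIC1 mark or specify the brown lineage, PPARγ and the C/EBP proteins drive adipocyte differentiation, and PGC-1α, PPARα and the estrogen-related receptors switch on mitochondrial and fatty acid oxidation genes. The 10 genes therefore cover lineage, differentiation and oxidative metabolism, and they are described in that order.

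Taken over the 10 genes, the peaks covered fewer bases in *Wtap*-BKO than in control mice. Peaks covered 12230 exonic bases in control and 7850 in *Wtap*-BKO mice, of which 6295 were covered in both, 51.5% of the former and 80.2% of the latter. Over all peaks of the lists, 61.4% of the control and 67.7% of the *Wtap*-BKO bases were covered in the other genotype. Fewer bases were covered in *Wtap*-BKO mice for 8 of the 10 genes, against 53.2% of the 8014 genes with peaks in both lists. *Pparg* and *Esrra* were the other two, with more bases covered in *Wtap*-BKO mice. The ratio of bases, *Wtap*-BKO over control, ranged from 0.116 for *Esrrg* to 1.18 for *Pparg*, where the median over all genes with peaks in both lists was 0.942. The median peak of the 10 genes covered 301 bases in control and 210 in *Wtap*-BKO mice, against 240 and 210 in the whole lists.

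**Figure D1:**
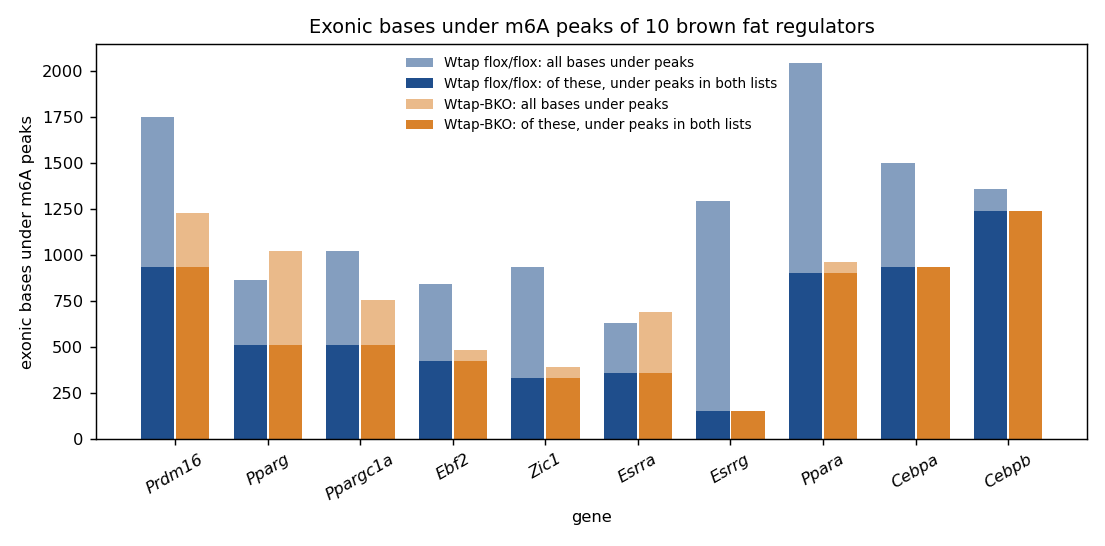
Exonic bases under m6A peaks (vertical axis, number of bases) for each of the 10 genes, with 1 bar per genotype and 1 pooled sample behind each bar, so there is no error bar. The dark part is covered by peaks in both lists, and *Esrrg* shows the widest gap, from 1293 bases in control (*Wtap* flox/flox) to 150 in *Wtap*-BKO mice.

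A peak was called found when any of its exonic bases, 1 or more, lay under a peak of the other list that had the same strand. Of the 33 control peaks, 12 were not found in *Wtap*-BKO mice (36.4%, 95% Wilson interval 22.2% to 53.4%, counting error only), against 32.2% of the whole list. *Prdm16* held 5 of the 12, and without it 7 of 25 peaks (28%) were not found. In the other direction, 5 of the 27 *Wtap*-BKO peaks were not found in control mice (18.5%, interval 8.18% to 36.7%), against 32% of the whole list. Both intervals include the share of the whole list, and peaks on 1 transcript are not independent. The 12 peaks lay on *Prdm16*, *Ebf2*, *Zic1*, *Esrra*, *Esrrg* and *Ppara*, and the 5 on *Pparg*, *Ppargc1a* and *Esrra*, and *Esrra* alone had unmatched peaks in both directions. When peaks of both lists were limited to a false discovery rate below 1e-05, *Esrra* had none, and *Ppargc1a* had them in both directions. For *Pparg*, *Ppargc1a*, *Cebpa* and *Cebpb*, every control peak was found in *Wtap*-BKO mice when 1 shared base sufficed. When shared bases in at least 50% of the peak were required, 1 of the 3 *Ppargc1a* peaks and 1 of the 3 *Cebpa* peaks were not found, and with the limit of 1e-05 for both lists 2 of 2 *Ppargc1a* peaks were not found.

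The fold enrichments and p-values of the lists were computed by the authors within 1 genotype, so each peak was placed only within its own list, by the percentage of that list with a weaker p-value (its rank). The median fold enrichment was 6.58 in the whole control list and 4.65 in the whole *Wtap*-BKO list. Fold enrichments and p-values printed for single peaks below were therefore not compared between genotypes. By fold enrichment, the median percentage of the list with a lower value was 51.9% for the control and 34.7% for the *Wtap*-BKO peaks of the 10 genes. The peaks that were not found were mostly weak ones: 9 of the 12 control and 5 of the 5 *Wtap*-BKO peaks ranked below 50%. The median rank was 40.8% for the 12 and 78.5% for the 21 that were found, and over the whole control list these medians were 29.3% and 60.8%. For 15 of the 21 found peaks the strongest *Wtap*-BKO peak on them ranked lower in its own list, against 43.8% of the found peaks of the whole list. All 15 were among the 17 found peaks in the stronger part of the control list, with a rank of at least 50%, where the share over the whole list was 54.7%. Of the found peaks in the weaker part, 4 of 4 ranked higher in *Wtap*-BKO mice, against 73.5% over the whole list. Taking only the strongest peak of each gene, the rank was lower in *Wtap*-BKO mice for 9 of the 10 genes, with *Esrra* the exception, against 48.5% of the genes with peaks in both lists. Among these 9 the drop varied widely, from 0.128 percentage points for *Cebpb* to 62.3 points for *Esrrg*. For *Esrrg*, *Zic1* and *Ppargc1a*, the strongest peaks of the 2 lists did not overlap, so their drops are not those of 1 peak. The overlapping *Esrrg* peaks ranked 67.0% in control and 17.0% in *Wtap*-BKO mice.

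**Figure D2:**
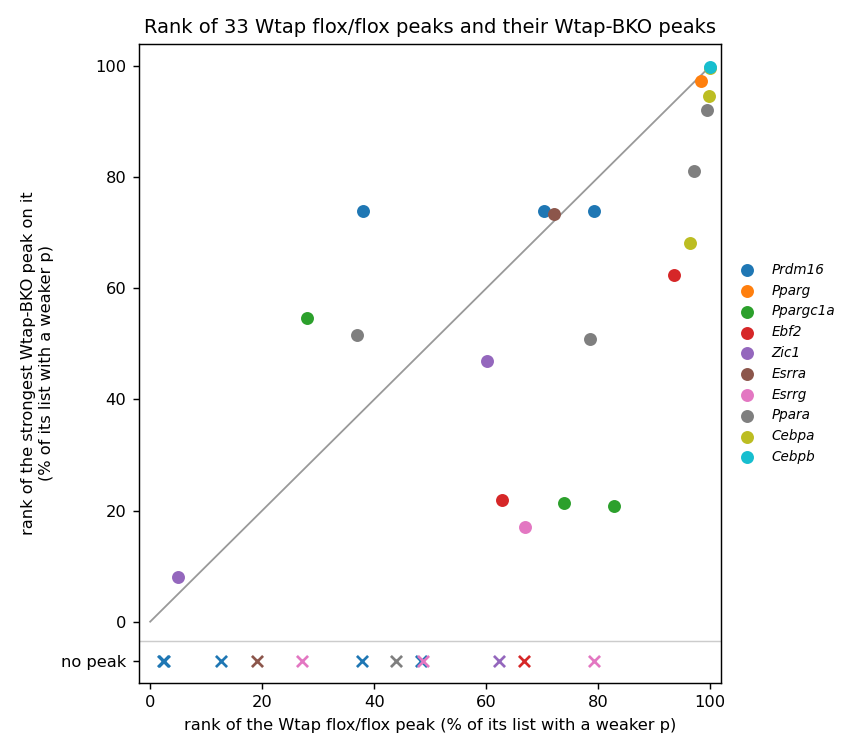
Rank of each of the 33 control (*Wtap* flox/flox) peaks of the 10 genes (horizontal axis, % of the control list with a weaker p-value) against the rank of the strongest *Wtap*-BKO peak on it (vertical axis, % of the *Wtap*-BKO list with a weaker p-value). The line marks equal rank, points are the 21 found peaks and crosses the 12 not found; 15 points lie below the line, with *Esrrg*, *Ppargc1a* and *Ebf2* farthest below it.

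Taken as sets, marker genes of other cell types had more peaks in *Wtap*-BKO mice. The whole lists held 18400 control and 18693 *Wtap*-BKO peaks. Control and *Wtap*-BKO mice had 12 and 21 peaks on 12 macrophage markers, 3 and 10 on 12 lymphocyte markers, 15 and 20 on 7 endothelial markers, 3 and 15 on 13 skeletal muscle markers, and 8 and 9 on 8 fibroblast markers. Among the fibroblast markers, only *Col3a1* had more peaks in *Wtap*-BKO mice (1 in control and 3). Single markers went the other way, with 2 control peaks and 1 *Wtap*-BKO peak on *C1qa* and on *Lum*, and 6 and 4 on *Flt1*. On 10 brown adipocyte markers there were 25 peaks in each genotype, and 10 of the 10 genes had a peak in at least 1 list. A peak in either list was found for 11 of the macrophage, 6 of the lymphocyte, 7 of the endothelial, 10 of the muscle and 7 of the fibroblast markers, and the defining markers *Adgre1*, *Cd3e* and *Myod1* had none. The part of cell composition in the values of the 10 genes was not tested. The lists hold no transcript levels, and less methylation per transcript, less transcript per cell and fewer cells of a type cannot be told apart.

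*Prdm16* (ENSMUSG00000039410) encodes a zinc finger coregulator that promotes brown and represses muscle and white fat genes. It lies on the minus strand of chromosome 4, from 154316122 to 154637360 of GRCm38. In control mice its 8 peaks fell into 3 places. The first place was a peak of 121 bases centred 547 bp from the 5ʹ end of the gene. The second was a cluster of 3 peaks between 154341018 and 154342007, with centres 24941 to 25840 bp from the 3ʹ end, and the third was a run of 4 peaks with centres 2640 to 4453 bp from the 3ʹ end. In *Wtap*-BKO mice a peak was listed in the third place only, with its centre 3943 bp from the 3ʹ end. It was an unbroken stretch of 1230 bases, longer than 99.2% of its list, and it bridged the gaps between the 3 control peaks under it, 2 of which it covered completely. The ranks of these 3, in order from the 5ʹ side, were 70.3%, 37.9% and 79.2%, and that of the *Wtap*-BKO peak was 74.0%. The peak 2640 bp from the 3ʹ end, which ended 628 bp from the nearest *Wtap*-BKO peak, was among the weakest of its list, with a rank of 2.26%. The 4 peaks in the first and second places ranked between 2.53% and 48.3%, and the *Wtap*-BKO peak nearest to any of them was 20337 bp away. The highest fold enrichment of the 33 control peaks, 30, belonged to the middle peak of the second place, whose log10 p was −8.40, and 25 of its 330 bases were shared with a peak of *B230104I21Rik* on the opposite strand. Among the 57 genes with 8 or more control peaks, *Prdm16* was the only 1 with fewer than 2 *Wtap*-BKO peaks, and it was 1 of 2 genes of all 11431 that had at least 7 fewer peaks in *Wtap*-BKO mice. These limits match the counts of *Prdm16* itself, so its rarity by them is not an independent result. By bases, *Prdm16* had 1746 covered in control and 1230 in *Wtap*-BKO mice, a ratio of 0.704.

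*Ebf2* (ENSMUSG00000022053) encodes a factor that marks brown preadipocytes and recruits PPARγ to brown fat genes. On the plus strand of chromosome 14 (67233292 to 67430952), it had 3 control peaks and 2 *Wtap*-BKO peaks. The strongest control peak, from 67428099 to 67428399, lay 2703 bp from the 3ʹ end of the gene, with a log10 p of −77.8, a fold enrichment of 9.86 and a rank of 93.6%. The *Wtap*-BKO peak there was of the same length, 301 bases, and was shifted by 60 bases, with a log10 p of −10.9, a fold enrichment of 3.79 and a rank of 62.4%. A gene without a name, ENSMUSG00000093634, had a peak on the opposite strand over 219 bases of the control peak, and whether the libraries kept the strand is not stated, so reads of this gene and of *Ebf2* may not be separable there. Near the 5ʹ end there were 2 control peaks. At 67236018 to 67236288, the peak ranked 62.8% and contained a *Wtap*-BKO peak of rank 21.8%. The peak at 67234909 to 67235178, rank 66.8%, had none, and the nearest *Wtap*-BKO peak was 899 bp away.

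*Zic1* (ENSMUSG00000032368), a zinc finger gene that marks classical brown fat, lies on the minus strand of chromosome 9 and spans only 7711 bp, from 91358058 to 91365768. It had 3 control peaks and 2 *Wtap*-BKO peaks, all of moderate or low rank. Closest to the 5ʹ end was a weak peak in both genotypes, from 91365301 to 91365451 in control mice at a rank of 5.05% and from 91365361 to 91365480 in *Wtap*-BKO mice at 8.02%. Nearest the 3ʹ end, a control peak of 391 bases (rank 60.1%) overlapped a *Wtap*-BKO peak of 271 bases (rank 46.9%), and their fold enrichments were 10.3 and 4.27. Between them the strongest control peak of the gene, from 91364342 to 91364732, with a log10 p of −13.7 and a rank of 62.2%, had no *Wtap*-BKO peak on it. The gap to the nearest one was 628 bp.

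**Figure D3:**
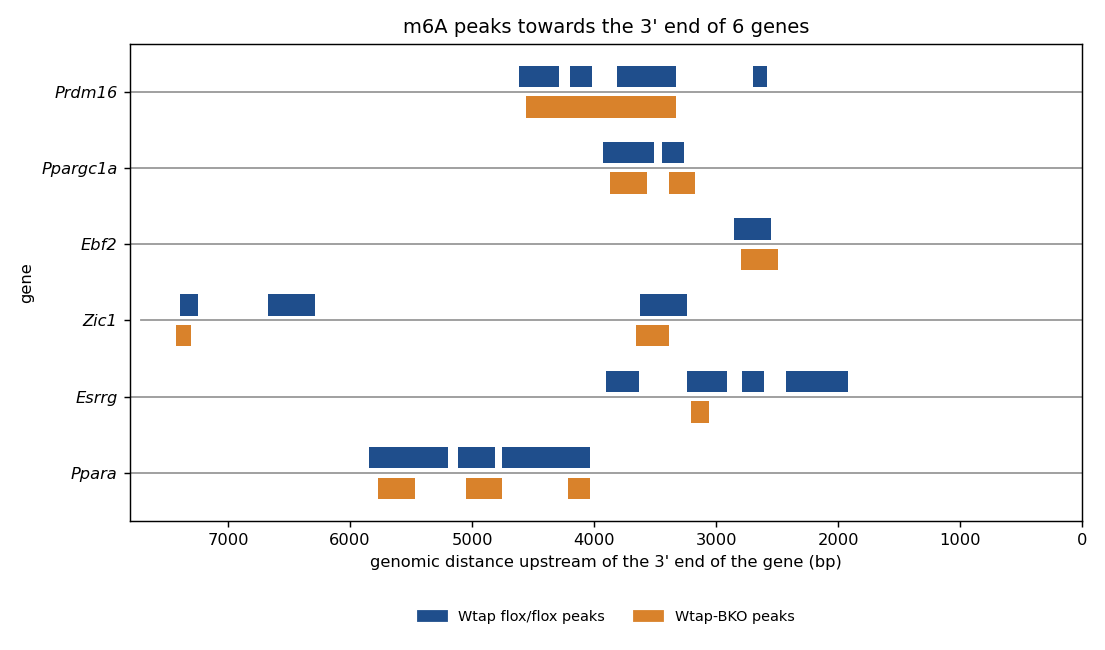
Peaks towards the 3ʹ end of 6 genes, by genomic distance upstream of the 3ʹ end of the gene in bp (horizontal axis), with control (*Wtap* flox/flox) peaks above and *Wtap*-BKO peaks below each line; *Zic1* is shown whole. *Prdm16* has 4 control peaks against 1 long *Wtap*-BKO peak, *Esrrg* has 4 against 1 short peak, and the *Ppara* peaks of *Wtap*-BKO mice cover fewer bases.

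*Pparg* (ENSMUSG00000000440) encodes the nuclear receptor PPARγ, which is required for adipocyte differentiation. It lies on the plus strand of chromosome 6, from 115360879 to 115490404, and it had 1 peak in control and 4 in *Wtap*-BKO mice. The control peak consisted of a block of 444 bases from 115472868 to 115473311 and a block of 422 bases from 115489948 to 115490369, which ends close to the 3ʹ end of the gene. In *Wtap*-BKO mice each block held a shorter peak of its own, of 210 and 300 bases, and 58.9% of the control bases were covered. The control peak as a whole ranked 98.4%. The *Wtap*-BKO peak in its last block ranked nearly as high, 97.3%, and that in the first block only 57.5%. Both *Wtap*-BKO peaks without a counterpart were near the 5ʹ end of the gene, centred 251 and 1514 bp from it, and ranked 45.0% and 21.7%. The first of these had a fold enrichment of 13.7, higher than 86.3% of its list, although its log10 p was only −6.64.

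*Cebpa* and *Cebpb* encode leucine zipper factors; C/EBPβ acts early in adipogenesis and binds PRDM16, and C/EBPα sustains the differentiated state together with PPARγ. Both genes are short and without introns, so distance along the gene is distance along the transcript. They carried the strongest peaks of the 10 genes by p-value in both genotypes. *Cebpa* (ENSMUSG00000034957, plus strand of chromosome 7, 35119293 to 35121928) had 3 peaks in each list, and each *Wtap*-BKO peak lay wholly inside its control counterpart. From the 5ʹ side, the lengths were 540, 749 and 211 bases in control and 271, 570 and 91 bases in *Wtap*-BKO mice. The fold enrichments were 6.96, 5.93 and 2.14 in control mice and 1.68, 2.63 and 1.32 in *Wtap*-BKO mice. All 3 were shorter in *Wtap*-BKO mice, and the fold enrichments, each relative to the input of its own genotype, were not compared. The middle peak ranked 99.9% and 99.6%, and the first 99.8% and 94.7%. The drop was largest in the last peak, with ranks of 96.5% and 68.1%.

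*Cebpb* (ENSMUSG00000056501, plus strand of chromosome 2, 167688915 to 167690432) had 1 control peak of 1357 bases, 89.4% of the gene. Its log10 p of −2380 was stronger than that of 99.9% of the list, and its fold enrichment was 18.2. In *Wtap*-BKO mice the same outer limits, 167689033 and 167690389, held 2 peaks of 384 and 856 bases, separated by a gap of 117 bases. Their log10 p-values were −110 and −716, their fold enrichments 2.55 and 6.06, and their ranks 97.8% and 99.8%. The transcript thus stayed at the top of both lists while its peak was broken in *Wtap*-BKO mice. *Tmem189* had a peak on the opposite strand in each list, which shared 312 bases with the control *Cebpb* peak and 199 with the second *Wtap*-BKO peak. As at *Ebf2*, reads of *Tmem189* and *Cebpb* may not be separable there. Of the 21 found control peaks of the 10 genes, 4 had 2 or more *Wtap*-BKO peaks on them, against 8.96% of the found peaks of the whole list. These 4 were on *Pparg*, *Cebpb*, *Esrra* and *Ppara*. They were long, with 866, 1357, 509 and 720 bases in that order against a median of 240 in the control list. The share among peaks of like length was not computed. In the other direction, 2 of the 22 found *Wtap*-BKO peaks had 2 or more control peaks on them, against 7.47% over the whole list.

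**Figure D4:**
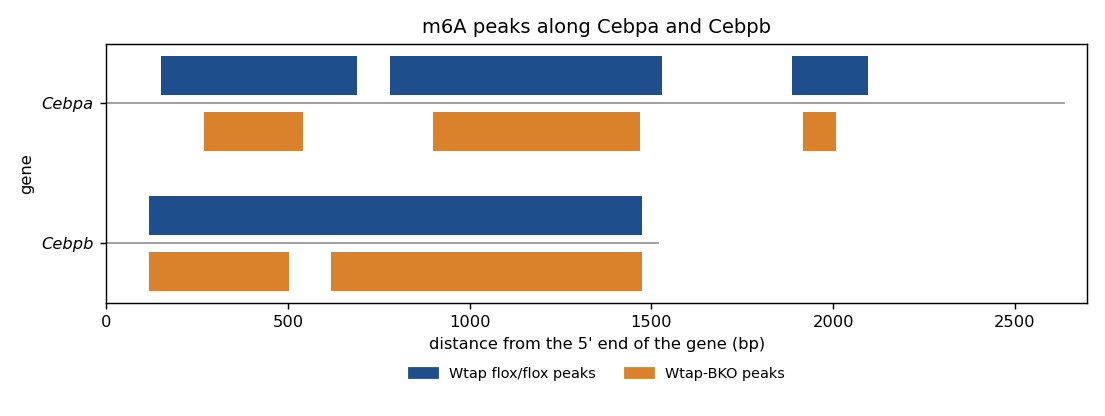
Peaks along *Cebpa* (2636 bp) and *Cebpb* (1518 bp), by distance from the 5ʹ end of the gene in bp (horizontal axis), with control (*Wtap* flox/flox) peaks above and *Wtap*-BKO peaks below each line. The 3 *Wtap*-BKO peaks of *Cebpa* lie inside the 3 control peaks, and the *Cebpb* peak of 1357 bases is split into 384 and 856 bases.

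*Ppargc1a* (ENSMUSG00000029167) encodes PGC-1α, the coactivator that couples adrenergic signals to mitochondrial biogenesis and *Ucp1* transcription. It lies on the minus strand of chromosome 5 (51454249 to 52115853). All 3 of its control peaks were found, but the overlap was uneven. Of the 420 bases of the strongest peak, centred 19596 bp from the 3ʹ end, only 91 (21.7%) were covered in *Wtap*-BKO mice, and the rank went from 82.8% to 20.8%. The second, of 421 bases, was covered over 301 bases (71.5%) and fell from a rank of 73.8% to 21.3%. The third was centred 3356 bp from the 3ʹ end and had 120 of its 180 bases covered, and there the *Wtap*-BKO peak had the higher rank, 54.7% against 27.9%. The fourth *Wtap*-BKO peak, in 2 blocks of 144 and 7 bases from 51494662 to 51495676, lay 20606 bp upstream of any control peak and was weak, with a rank of 26.9%.

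*Ppara* (ENSMUSG00000022383) encodes the nuclear receptor PPARα, which activates fatty acid oxidation genes. It lies on the plus strand of chromosome 15 (85734910 to 85806851) and had the most bases covered of the 10 genes in control mice, 2043, against 963 in *Wtap*-BKO mice. Near the 5ʹ end, both genotypes had a peak with identical limits, 85735793 to 85735972. It ranked 37.0% in control and 51.6% in *Wtap*-BKO mice, with fold enrichments of 3.37 and 3.51. The strongest peak ended at 85801651, covered 661 bases in blocks of 20 and 641, and had a log10 p of −474 and a fold enrichment of 11.1. The *Wtap*-BKO peak inside it covered 301 bases, with −47.6 and 2.87, and the ranks were 99.5% and 92.1%. Downstream of it the control peaks of 301 and 720 bases ranked 78.5% and 97.1%, and the *Wtap*-BKO peaks of 301 and 181 bases ranked 50.8% and 81.1%. Only 182 of the 720 bases (25.3%) were covered in *Wtap*-BKO mice. The remaining control peak lay at 85797945 to 85798125, with a rank of 43.9%, and nothing was listed over it in *Wtap*-BKO mice. In this gene the 4 peaks towards the 3ʹ end were thus shorter, weaker or missing in *Wtap*-BKO mice, whereas the peak at the 5ʹ end was the same by position.

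*Esrra* and *Esrrg* encode the orphan nuclear receptors ERRα and ERRγ, which act with PGC-1 coactivators on oxidative phosphorylation genes. The peaks of these related genes differed in position and in the comparison of genotypes. *Esrrg* (ENSMUSG00000026610, plus strand of chromosome 1, 187608510 to 188214885) had 4 control peaks, all with centres 2174 to 3763 bp from the 3ʹ end of the gene. They covered 271, 330, 181 and 511 bases, ranked 79.3%, 67.0%, 27.2% and 48.7%, and had fold enrichments of 10.4, 7.20, 3.84 and 5.32. *Wtap*-BKO mice had 1 peak of 150 bases, from 188211677 to 188211826, inside the second of these, with a log10 p of −3.78, a fold enrichment of 3.68 and a rank of 17.0%. The first, which was the strongest and had a log10 p of −28.5, had none, and among the 12 peaks not found it had the highest rank. *Esrrg* kept 11.6% of its control bases, the smallest share of the 10 genes.

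*Esrra* (ENSMUSG00000024955, minus strand of chromosome 19, 6910977 to 6922048) was the only gene of the 10 whose strongest peak ranked higher in *Wtap*-BKO mice, by a small margin. The control peak had 3 blocks of 280, 37 and 192 bases between 6920120 and 6921813, towards the 5ʹ end. *Wtap*-BKO mice had a peak of 180 bases inside the last block and a peak of 240 bases over the first, and none over the block of 37 bases. The rank was 72.0% in control mice, and 73.4% and 67.7% for the *Wtap*-BKO peaks. At the 3ʹ end, the genotypes had weak peaks at different positions. The control peak was centred 59 bp from the end of the gene, at a rank of 19.1%. The *Wtap*-BKO peaks were centred 522 and 746 bp from it, at ranks of 25.3% and 10.9%. Their fold enrichments were between 1.47 and 1.97, and 328 bp separated the nearest pair.

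The position of each peak was measured by its middle exonic base. Among genes spanning at least 3000 bp, which leaves out *Cebpa* and *Cebpb*, 1 of 29 control peaks (3.45%) and 3 of 22 *Wtap*-BKO peaks (13.6%) were centred less than 1000 bp before the 3ʹ end, where the shares over the whole lists were 21.7% and 19.3%. As near to the 5ʹ end were 3 control and 4 *Wtap*-BKO peaks, 10.3% and 18.2%, against 11.4% and 13.1% of the lists. The control *Pparg* peak was not counted at the 3ʹ end, because its middle base lies in its first block, although its last block ends close to the end of the gene. All of these are genomic distances that include introns. The limits of exons and the position of stop codons were not analysed here.

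Around the 10 genes, a list of 61 partners and other regulators of the brown fat programme, such as receptors, coactivators and lineage factors, was examined for covered bases. Of the 54 with a peak, 50 had peaks in both lists, and in 38 of these (76%) fewer bases were covered in *Wtap*-BKO mice, with a median ratio of 0.80. Over all genes with peaks in both lists, the share was 53.2% and the median ratio 0.942. Fewer bases in *Wtap*-BKO mice, as in 8 of the 10 genes, were thus not particular to them. Of their 148 control peaks, 48 (32.4%) were not found, close to the share of the whole list. Of their 131 *Wtap*-BKO peaks, 30 (22.9%) were not found, against 32% of the whole list and 18.5% for the 10 genes. *Zfp423*, a zinc finger gene that represses the brown programme in white fat, and *Tbx15*, a T-box gene, each had 1 peak in control mice only, at ranks of 54.3% and 2.68%. *Srebf1*, a regulator of lipogenesis, had 1 peak of rank 43.0% in *Wtap*-BKO mice only, and the signal transducer *Stat5b* had 2, at 33.2% and 51.3%.

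A list of 43 genes known as targets of these regulators in brown fat was examined in the same way. Of 31 targets with peaks in both lists, 17 (54.8%) had fewer bases covered in *Wtap*-BKO mice, near the share over all genes, with a median ratio of 0.952. The targets had 71 control and 75 *Wtap*-BKO peaks, of which 18 (25.4%) and 19 (25.3%) were not found in the other list. Peaks in control mice only were on *Elovl3*, a fatty acid elongase, *Otop1*, a proton channel, *Gk*, glycerol kinase, and *Dgat2*, which completes triglyceride synthesis. On chromosome 7 (minus strand), the *Dgat2* peak at 99154436 to 99154675 had a log10 p of −258, a rank of 98.8% and a fold enrichment of 2.03. The *Otop1* peak covered 1258 bases at a rank of 93.3%. *Gk* ranked 48.0%, and the 2 *Elovl3* peaks ranked 28.5% and 1.64%. Genes with peaks in *Wtap*-BKO mice only included *Plin2*, a lipid droplet protein, *Hadhb* of the mitochondrial trifunctional protein, *Cycs*, cytochrome c, and *Atp5b* of ATP synthase. The strongest of these peaks was on *Atp5b*, with a rank of 81.1% and a fold enrichment of 1.28, and the others ranked 28.0%, 59.5% and 14.7% in the order given.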

How the data were processed

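The MeRIP-seq of iBAT comprised 4 samples, an IP and an input for each of the 2 genotypes. The methods name MACS2 for peak calling, whereas the layout of the lists is that of exomePeak, and the caller is not settled. The submitters' processing notes name fastp 0.19.11, BWA 0.7.12, HOMER 4.9.1 and GRCm38.p6, with no role given. The deposited lists give, per peak, a p-value, 2 scores (log10 p and log10 false discovery rate) and a fold enrichment, a ratio of IP over input by the authors whose scaling is not described. Every listed peak has a false discovery rate below 0.05, the limit the authors set. No read counts come with the lists, so depth is unknown and the precision of each value cannot be given.

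Peaks were matched by exonic blocks with Python 3.11.15. Intervals came from scipy 1.17.1 and figures from matplotlib 3.10.9. Positions were converted to 1-based. Ranks are the percentage of a list with a weaker log10 p. Gene limits came from a RefSeq table of GRCm38.p6, matched by symbol and chromosome for 10 of 10 genes. The centre of a peak is its middle exonic base. The matching was tested on simulated data. All peaks of the 10 genes were named, and of the 2 lists of partners and targets those genes with peaks in 1 genotype only, of which 1 is not reported here. The 10 genes, lists and alternatives were chosen with earlier results of these data known. Alternatives varied the overlap needed, the strand, the false discovery rate and the ranking, and left out *Prdm16* or shared peaks.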

Additional observations from a re-analysis of the deposited data

How the results depend on the processing

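The 12 control (*Wtap* flox/flox) peaks of the 10 genes without a *Wtap*-BKO peak stayed within 1.5 times (11 to 17) when shared bases in at least 50% of the peak were asked for, when whole spans, either strand or only peaks of the same Ensembl gene counted, when a false discovery rate under 1e-05 was asked for in both lists, and when peaks sharing bases with another gene were left out. As shares, 12 of 33 (36.4%) became 17 of 33 (51.5%) with the limit of 50% of the peak. With the limit of 1e-05 in both lists the share was 11 of 26 (42.3%). Shares over the whole lists were not computed for any alternative in this paragraph, so the members cannot be set against them there. The count was 7 of 26 when the control peaks searched for were limited to a false discovery rate under 1e-05, 7 of 25 without *Prdm16*, and 0 when any peak on the same gene sufficed, since each gene had a peak in both lists. For the 5 unmatched *Wtap*-BKO peaks, the count was 1 of 18 when those under 1e-05 were searched for, 2 of 18 with that limit in both lists, 0 for any peak on the same gene, and 5 under the other 6 alternatives. The 6295 bases covered in both lists were 5361 under 1e-05, 6295 with introns included and 5363 without *Prdm16*. As a share of all bases covered in either list, they were 45.7% in exons, 43.3% under 1e-05, 16.2% with introns included and 45.7% without *Prdm16*. The 15 of 21 found peaks with a lower *Wtap*-BKO rank became 14 of 21 by fold enrichment, 16 of 21 with the *Wtap*-BKO peak of the most shared bases, and 14 of 18 without *Prdm16*. Leaving out *Prdm16* or peaks shared with other genes, and both other ways of ranking, were chosen after seeing the data. Among 178 counts for single genes, 23 moved by over 1.5 times. For *Ppargc1a*, 2 of 2 control peaks and 1 of 1 *Wtap*-BKO peak were unmatched with the limit of 1e-05 in both lists. For *Esrra* the count was then 0 in both directions. No paired analysis was possible because each genotype had 1 pooled sample. A peak missing from a list may lie just under the authors' threshold, and without read counts this depth limit cannot be given as a number.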

Other observations

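Relatives of the 10 genes were described as well, chosen for kinship after their values had been seen. In control (*Wtap* flox/flox) and *Wtap*-BKO mice, *Ebf1*, a relative of *Ebf2*, had 4 and 2 peaks, covering 1200 and 840 bases. The strongest control peak of *Ebf1*, with a log10 p of −122 and a rank of 96.5%, had a *Wtap*-BKO peak of −12.1 and 65.4% on it. The neighbouring peak ranked 96.2% and 93.4%. Another relative, *Ebf3*, had 3 peaks in each list over 693 and 722 bases, and its strongest ranked 94.2% and 92.7%.

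*Cebpd* had 1 peak in each list, of 420 bases in control and 480 in *Wtap*-BKO mice, and its rank was higher in the latter, 95.4% against 90.5%. *Cebpg* had 1 peak of 779 and 749 bases, with ranks of 98.3% and 97.5%. *Ppard* had 1 peak of 419 and 390 bases, with ranks of 91.4% and 85.8%. *Ppargc1b* had 3 peaks in each list, and every one of these peaks was found in the other list. Its peaks covered 2373 bases in control and 1443 in *Wtap*-BKO mice, and 60.8% of the control bases were covered in both. Its ranks were 94.8%, 95.8% and 91.0% in control and 84.0%, 92.0% and 92.8% in *Wtap*-BKO mice, in order of position. *Mecom*, a relative of *Prdm16*, had 4 control peaks and 3 *Wtap*-BKO peaks, and more bases were covered in *Wtap*-BKO mice, 841 against 573. *Zic2* and *Esrrb* had no peak in either list.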
